A study of Mus musculus with 12 samples.

Results

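The claudin genes Cldn1, Cldn2, Cldn3, Cldn4, Cldn7, Cldn8, Cldn10, Cldn16, Cldn18 and Cldn19 were followed through tumors labelled as lacking Lats1 and Lats2 and through sorted proximal tubule cells. They were chosen by symbol, through the Ensembl identifiers of the deposited table, and were 10 of its 24432 genes and 10 of its 32 claudin genes. RNA was sequenced in bulk from 12 mouse libraries, 3 in each of 4 groups. Primary tumors of the kidney and metastases in the lung were taken from Slc34a1CreERT2;Lats1/2flox/flox mice of mixed background 4 months after 3 injections of tamoxifen that were given at 1 month of age. Tamoxifen switches on Cre recombinase in cells that express Slc34a1, which encodes a phosphate transporter of proximal tubule cells, and Cre deletes Lats1 and Lats2, kinases of the Hippo pathway that keep YAP and TAZ out of the nucleus. Allograft tumors were taken 6 weeks after Lats1-/-;Lats2-/- cells of a mixed background had been placed beneath the kidney capsule of NOD/scid mice, which were 6 to 8 weeks old and which lack T and B cells and keep macrophages. Proximal tubule cells were sorted by flow cytometry from the kidneys of adult Slc34a1CreERT2;Lats1c/c;Lats2c/+;RosaTomato mice. Those mice carried the same Cre driver, with Lats1 conditional on both chromosomes and Lats2 on 1 of them; the sources used here do not say whether recombination had taken place. Nor do they say whether the allograft cells were 1 clone, or whether replicates were separate animals, and the p-values therefore cover only the spread among these libraries, which may be technical.

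Claudins are membrane proteins of the tight junction, the belt that joins neighboring epithelial cells and sets what passes between them. Some seal the gap and others form pores for ions or water, so the mix of claudins gives each stretch of the nephron its own permeability. In the kidney Cldn2 and Cldn10 belong to the leaky proximal tubule, Cldn16 and Cldn19 to the thick ascending limb, and Cldn3, Cldn4, Cldn7 and Cldn8 to the tighter distal segments and collecting duct. Cldn18 is known from lung alveoli and stomach.

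Levels are given in FPKM (fragments scaled by transcript length and library total), as the authors deposited them. FPKM is per length, so levels of different genes may be set side by side. Changes are differences of log2(FPKM + 1) between group means, with the standard error (SE), which understates the change of genes with few fragments. They were tested with limma over the 16313 genes with at least 1 FPKM in 3 or more libraries, all 10 claudins among them, and a gene was called at a Benjamini-Hochberg adjusted p under 0.05 over all these genes. In each fit n was 3 libraries a group.

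The libraries differed in scale and in make-up. Depth, estimated from the commonest smallest step of low values, was 11.1 to 17.4 M fragments (M, mega) in the tumors and 4.68 to 5.96 M in the proximal tubule cells. One fragment of a 2 kb transcript was then worth 0.0287 to 0.0450 FPKM in the tumors and 0.0839 to 0.107 FPKM in the proximal tubule cells. The columns summed to 1.35e+06 to 2.53e+06 FPKM in the tumors and to 706093 to 738052 FPKM in the proximal tubule cells. The median change of all genes against proximal tubule cells was 0.59 in primary tumors, 0.68 in metastases and 0.66 in allograft tumors. After rescaling to TPM (a fixed sum per library) it was -0.29, -0.18 and -0.37, after median-of-ratios scaling 0.079, 0.20 and 0.19, and after quantile normalization -0.12, -0.037 and 0.012, in the same order. Of the genes called against proximal tubule cells, 90.8%, 78.9% and 75.6% were higher in primary, metastatic and allograft tumors as deposited. Under median-of-ratios scaling these shares were 58.6%, 58.3% and 57.1%, under quantile normalization 39.4%, 46.5% and 50.0%, and under TPM rescaling 35.9%, 43.7% and 33.6%. Directions against proximal tubule cells are therefore given with their fate under these scalings.

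Lats1 had 12.3, 13.0 and 14.7 FPKM in primary tumors, 9.54, 10.4 and 10.7 FPKM in metastases, 5.603, 7.82 and 7.29 FPKM in allograft tumors and 11.9, 12.7 and 12.8 FPKM in the sorted cells. Lats2 had 19.5, 13.0 and 21.4 FPKM in primary tumors, 22.5, 19.9 and 22.4 FPKM in metastases, 12.2, 16.6 and 17.1 FPKM in allograft tumors and 10.5, 10.7 and 10.96 FPKM in the sorted cells. In FPKM as deposited, metastases and allograft tumors lay below the sorted cells in Lats1, and all 9 tumors lay above them in Lats2. TPM rescaling multiplied levels by 0.396 to 0.740 in the tumors and by 1.35 to 1.42 in the sorted cells. No tumor then lay above every sorted library in Lats2. Gene-level FPKM also counts exons outside a deleted part, and the sources used here do not name those that were removed, so the labels cannot be checked from gene-level values.

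The labelled tissues were checked against marker lists with the claudins left out. The summed level of 8 proximal tubule markers was 156, 3702 and 968 FPKM in primary tumors 1 to 3, 175 to 221 FPKM in metastases, 37.5 to 108 FPKM in allograft tumors and 4842 to 5767 FPKM in the sorted cells. The 5 thick ascending limb markers summed to 282, 1909 and 3890 FPKM in primary tumors 1 to 3, 2.63 to 3.41 FPKM in metastases, 4.71 to 23.7 FPKM in allograft tumors and 332 to 565 FPKM in the sorted cells. Primary tumors 2 and 3 thus held several kidney segments at high levels, primary tumor 1 stood apart from them, and the sorted cells held thick limb transcripts too. The 13 lung epithelium markers summed to 13023 to 20484 FPKM in metastases, with Sftpc (surfactant protein C) at 3851 to 5694 FPKM. In the sorted cells 8 of these 13 markers, Sftpc and Sftpb among them, were listed at 0. Leukocyte markers (6 genes) summed to 132 to 706 FPKM in primary tumors, 516 to 669 FPKM in metastases, 574 to 2129 FPKM in allograft tumors and 4.37 to 6.94 FPKM in the sorted cells. In bulk RNA, fewer cells of a type and less RNA per cell cannot be told apart.

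Promoter windows are shown for some, not all, of the listed claudins that differed between groups. These are the proximal tubule pair Cldn2 and Cldn10, the neighboring genes Cldn4 and Cldn3, and Cldn18. Each window is the 250 bases before a RefSeq start in GRCm38.p6, 5′ to 3′ on the strand of the gene. Capitals mark matches, on either strand, to the letters GGAATG (the TEAD motif), TGANTCA (AP-1) or CACCTG (the Snail and ZEB E-box); no pair of matches overlaps. Of 32851 windows of this length over all genes, 12.6%, 6.75% and 17.2% hold these motifs.
Cldn2 (chrX:139800558-139800807, plus strand): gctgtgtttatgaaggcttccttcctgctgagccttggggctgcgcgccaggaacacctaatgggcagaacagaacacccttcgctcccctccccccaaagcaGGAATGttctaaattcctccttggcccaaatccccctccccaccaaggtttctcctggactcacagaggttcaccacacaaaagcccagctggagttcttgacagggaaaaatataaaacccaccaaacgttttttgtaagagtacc
Cldn10 upstream start (chr14:118787621-118787870, plus strand): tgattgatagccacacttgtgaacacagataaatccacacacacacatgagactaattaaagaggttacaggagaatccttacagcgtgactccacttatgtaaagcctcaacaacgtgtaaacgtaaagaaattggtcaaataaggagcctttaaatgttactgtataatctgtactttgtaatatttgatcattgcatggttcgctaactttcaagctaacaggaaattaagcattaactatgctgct
Cldn10 downstream start (chr14:118854700-118854949, plus strand): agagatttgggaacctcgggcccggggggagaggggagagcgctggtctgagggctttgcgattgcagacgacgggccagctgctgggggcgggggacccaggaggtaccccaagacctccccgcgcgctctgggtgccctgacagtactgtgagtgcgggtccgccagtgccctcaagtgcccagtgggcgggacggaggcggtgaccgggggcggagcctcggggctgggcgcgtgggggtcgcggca
Cldn4 (chr5:134946935-134947184, minus strand): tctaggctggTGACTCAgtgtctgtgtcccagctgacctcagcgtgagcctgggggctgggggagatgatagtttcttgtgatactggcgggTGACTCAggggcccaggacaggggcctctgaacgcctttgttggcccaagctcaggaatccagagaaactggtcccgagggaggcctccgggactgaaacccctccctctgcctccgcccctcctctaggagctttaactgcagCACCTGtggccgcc
Cldn3 (chr5:134985964-134986213, plus strand): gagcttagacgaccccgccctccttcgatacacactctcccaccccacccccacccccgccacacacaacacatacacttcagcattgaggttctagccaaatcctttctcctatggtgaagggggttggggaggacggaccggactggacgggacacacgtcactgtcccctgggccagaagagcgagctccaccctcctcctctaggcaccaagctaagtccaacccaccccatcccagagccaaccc
Cldn18 upstream start (chr9:99717268-99717517, minus strand): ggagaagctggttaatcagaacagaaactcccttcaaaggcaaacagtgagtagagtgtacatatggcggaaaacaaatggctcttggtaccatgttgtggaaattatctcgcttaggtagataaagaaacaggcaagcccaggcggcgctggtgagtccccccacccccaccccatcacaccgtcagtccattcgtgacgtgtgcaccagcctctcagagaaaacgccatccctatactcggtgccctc
Cldn18 downstream start (chr9:99710064-99710313, minus strand): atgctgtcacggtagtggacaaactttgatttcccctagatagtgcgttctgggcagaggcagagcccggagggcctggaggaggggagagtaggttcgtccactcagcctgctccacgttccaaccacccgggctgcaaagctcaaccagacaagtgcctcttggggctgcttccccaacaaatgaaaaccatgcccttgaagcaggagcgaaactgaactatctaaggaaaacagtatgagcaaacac
Of these 7 windows, the one of Cldn2 held a TEAD match at -147, counted from the start, and the one of Cldn4 held AP-1 matches at -240 and -158 and an E-box at -14. Among the 9 listed claudins with a window, Cldn7 and Cldn16 also held a TEAD match, and Cldn7 held 2 E-boxes in the window of another start. A match describes letters only, and no factor was measured here.

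The channel-forming claudins of the proximal tubule led the 10 listed claudins in the sorted cells and fell in metastases and allograft tumors. Cldn2, which forms a pore for sodium and water (chrX:139800828-139811386, plus strand), had 46.1, 175 and 52.7 FPKM in primary tumors 1 to 3, 25.7, 15.1 and 13.3 FPKM in metastases, 3.49, 10.2 and 0.713 FPKM in allograft tumors, and 192, 188 and 242 FPKM in proximal tubule cells. All 9 tumor libraries were below all 3 libraries of sorted cells, and no neighboring groups in the order allograft, metastasis, primary tumor and proximal tubule overlapped. For comparison, 62.3% of all genes had no overlap between primary tumors and sorted cells, 83.5% between metastases and sorted cells and 75.6% between allograft tumors and sorted cells. Against proximal tubule cells Cldn2 fell in metastases (-3.50 ± 0.65, adjusted p = 0.000786) and in allograft tumors (-5.55 ± 0.65, adjusted p = 3.63e-05). In primary tumors the difference was -1.44 ± 0.65 and was not called (adjusted p = 0.0847). It was called with a pseudocount of 5, under the 3 other scalings (-1.81 to -2.54), with array weights and without primary tumor 2 (-2.04, adjusted p = 0.0193). Cldn2 is X-linked, and the level of the Y-linked Ddx3y was 0.112, 30.0 and 20.5 FPKM in primary tumors 1 to 3, with 0 listed for the sorted cells. Metastases had 0.133 to 0.259 FPKM of Ddx3y and allograft tumors 8.94 to 22.8 FPKM. The X-linked Xist had 163, 0.323 and 0.374 FPKM in primary tumors 1 to 3 and 87.9 to 96.9 FPKM in metastases. Allograft tumors had 48.9 to 127 FPKM of Xist and the sorted cells 141 to 183 FPKM. The part of sex in the result was not tested.

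Cldn10 encodes an anion pore of the proximal tubule and, from another start, a cation pore of the thick ascending limb, and gene-level FPKM does not separate them (chr14:118787908-118875489, plus strand). It had 15.2, 163 and 179 FPKM in primary tumors 1 to 3, 7.72, 10.8 and 10.2 FPKM in metastases, 1.18, 5.34 and 0.918 FPKM in allograft tumors, and 104, 100.4 and 91.3 FPKM in proximal tubule cells. Primary tumor 1 lay below the sorted cells, and primary tumors 2 and 3 lay above them in FPKM as deposited but not after TPM rescaling. Cldn10 fell in metastases (-3.24 ± 0.79, adjusted p = 0.00415) and in allograft tumors (-5.06 ± 0.79, adjusted p = 0.000234). In primary tumors the difference was -0.35 ± 0.79 (adjusted p = 0.730), which rests on single libraries. It was 0.79 without primary tumor 1 (adjusted p = 0.148), and -2.62 with primary tumor 1 as the lone primary tumor (adjusted p = 0.00436), which assumes that it varies like the other groups. The thick limb list was highest in primary tumors 2 and 3 as well, and its part in the level of Cldn10 was not tested.

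**Figure D1:**
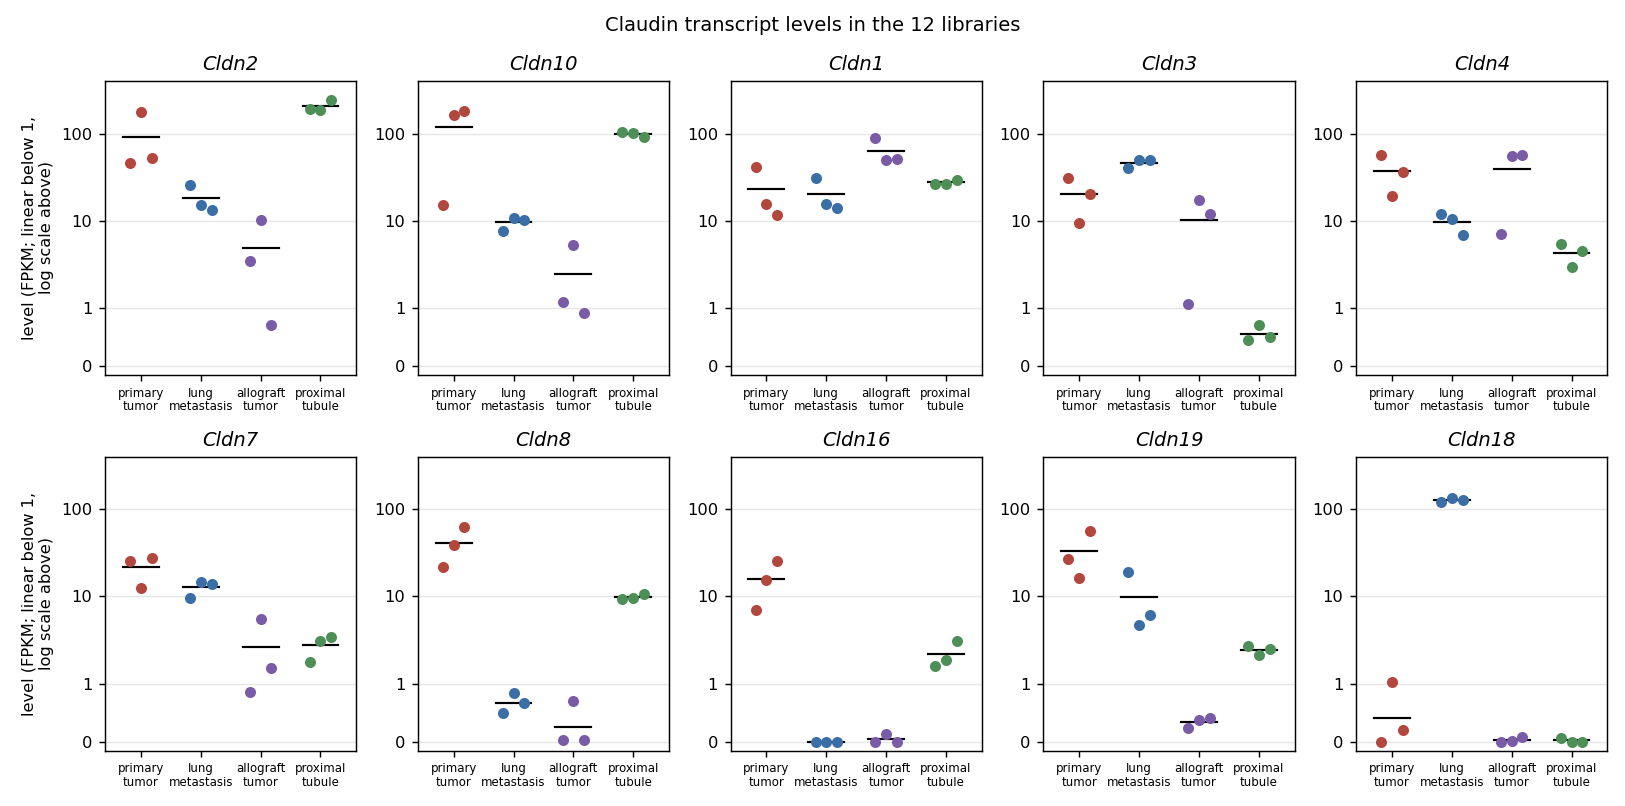
Levels of the 10 claudins in FPKM (linear below 1, log scale above) in primary tumors, lung metastases, allograft tumors and proximal tubule cells; each point is a library and each line the mean of 3. Cldn2 and Cldn10 lie lowest in the allograft tumors, Cldn3 lies lowest in the proximal tubule cells, and Cldn18 exceeds 100 FPKM in the 3 metastases and stays at or below 1.05 FPKM in the other 9 libraries.

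The barrier claudins Cldn3, Cldn4 and Cldn7 were higher in primary tumors than in the sorted cells. Cldn3, a sealing claudin (chr5:134986214-134987472, plus strand), had 30.8, 9.42 and 20.2 FPKM in primary tumors 1 to 3, 40.0, 49.7 and 49.5 FPKM in metastases, 1.10, 17.2 and 12.1 FPKM in allograft tumors, and 0.446, 0.710 and 0.506 FPKM in proximal tubule cells. In FPKM as deposited, every tumor library exceeded every library of sorted cells, where the values rest on a few fragments. Allograft tumor 1 lay below all sorted libraries after TPM rescaling and within their range after median-of-ratios scaling. Cldn3 rose in primary tumors (3.63 ± 0.68, adjusted p = 0.00151), in metastases (4.93 ± 0.68, adjusted p = 0.000122) and in allograft tumors (2.36 ± 0.68, adjusted p = 0.0101). The allograft call was lost after TPM rescaling (1.53, adjusted p = 0.0677) and quantile normalization (1.38, adjusted p = 0.1003). Metastases also held the 13 lung epithelium markers at a summed 13023 to 20484 FPKM. The part of lung epithelium in their levels of Cldn3, Cldn4 and Cldn7 was not tested. The antisense gene Wbscr25 shares exon sequence with Cldn3 and had 0.679 to 1.06 FPKM in the tumors and at 0 in the sorted cells. The sources used here do not give strandedness, so reads of that pair cannot be told apart.

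Cldn4, a barrier to sodium in the collecting duct (chr5:134945119-134946934, minus strand), had 56.8, 19.0 and 36.3 FPKM in primary tumors 1 to 3, 11.8, 10.3 and 6.92 FPKM in metastases, 6.97, 54.9 and 56.6 FPKM in allograft tumors, and 5.43, 2.95 and 4.49 FPKM in proximal tubule cells. Allograft tumor 1 lay near the metastases, far below allograft tumors 2 and 3. Cldn4 rose in primary tumors (2.76 ± 0.68, adjusted p = 0.00659) and allograft tumors (2.51 ± 0.68, adjusted p = 0.00715). After TPM rescaling these changes were 1.76 (adjusted p = 0.0690) and 1.26 (adjusted p = 0.162), and after quantile normalization the allograft change was 1.81 (adjusted p = 0.0509). In metastases the difference was 1.02 ± 0.68 (adjusted p = 0.203), although no metastasis overlapped the sorted cells in FPKM as deposited. After TPM rescaling these groups overlapped.

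Cldn7, which binds EpCAM at lateral membranes (chr11:69964779-69967885, plus strand), had 25.5, 12.6 and 27.8 FPKM in primary tumors 1 to 3, 9.48, 14.8 and 14.1 FPKM in metastases, 0.860, 5.46 and 1.52 FPKM in allograft tumors, and 1.79, 3.05 and 3.43 FPKM in proximal tubule cells. It rose in primary tumors (2.56 ± 0.45, adjusted p = 0.000988) and metastases (1.88 ± 0.45, adjusted p = 0.00351), the second of which was lost after TPM rescaling (0.99, adjusted p = 0.1001) and quantile normalization (1.03, adjusted p = 0.0643). Allograft tumors overlapped the sorted cells (-0.24 ± 0.45, adjusted p = 0.648), and without allograft tumor 1 the difference was 0.13. Epcam itself was at 0.615, 22.9 and 8.21 FPKM in allograft tumors 1 to 3 and the E-cadherin gene Cdh1 at 0.938, 7.87 and 2.01 FPKM, so allograft tumor 1 was also the lowest of its group in these epithelial markers.

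Cldn1, a sealing claudin of many epithelia and of the epidermis (chr16:26356642-26371841, minus strand), was, in FPKM as deposited, the one listed claudin with its highest levels in the allograft tumors and no overlap there. It had 41.5, 15.6 and 11.7 FPKM in primary tumors 1 to 3, 31.3, 15.8 and 14.1 FPKM in metastases, 89.2, 49.9 and 51.2 FPKM in allograft tumors, and 26.7, 26.6 and 29.6 FPKM in proximal tubule cells. Against proximal tubule cells it was called higher in allograft tumors (1.12 ± 0.44, adjusted p = 0.0414). That call depends on the setting: it was lost when any single library of either group was left out (0.85 to 1.26, adjusted p = 0.0508 to 0.144), with no filter on low values (adjusted p = 0.0551), after median-of-ratios scaling (0.49) and after quantile normalization (0.69), and TPM rescaling turned it to -0.27. Primary tumors (-0.46 ± 0.44, adjusted p = 0.391) and metastases (-0.51 ± 0.44, adjusted p = 0.323) overlapped the sorted cells. Both were called lower after TPM rescaling, at -1.52 (adjusted p = 0.0118) in primary tumors and -1.52 (adjusted p = 0.00784) in metastases, and with array weights (-1.07 and -0.69). Metastases were also called lower after median-of-ratios scaling (-1.09, adjusted p = 0.0482), and primary tumors without primary tumor 1 (-0.98, adjusted p = 0.0390).

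The claudins of the thick ascending limb and distal nephron, Cldn16, Cldn19 and Cldn8, were called higher in primary tumors and lower in allograft tumors than in the sorted cells. In metastases Cldn16 and Cldn8 fell, while Cldn19 was called higher. Cldn16, a partner of Cldn19 in the reabsorption of magnesium and calcium (chr16:26463135-26482765, plus strand), had 7.07, 15.3 and 25.4 FPKM in primary tumors 1 to 3, 0 in all 3 metastases, 0, 0.140 and 0 FPKM in allograft tumors, and 1.60, 1.87 and 3.07 FPKM in proximal tubule cells. Each primary tumor exceeded each library of sorted cells, and each metastasis and allograft tumor lay below them. Cldn16 rose in primary tumors (2.28 ± 0.35, adjusted p = 0.000482) and fell in metastases (adjusted p = 0.00189, with no fold given against 0) and in allograft tumors (-1.58 ± 0.35, adjusted p = 0.00226). The allograft call was lost with a pseudocount of 5 (-0.50, adjusted p = 0.1002).

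Cldn19, which recruits Cldn16 to the junction in the thick limb (chr4:119255414-119262438, plus strand), had 26.9, 16.4 and 56.97 FPKM in primary tumors 1 to 3, 19.0, 4.65 and 6.11 FPKM in metastases, 0.239, 0.369 and 0.406 FPKM in allograft tumors, and 2.73, 2.12 and 2.50 FPKM in proximal tubule cells. Unlike Cldn16, it was measured in the metastases, above the sorted cells in all 3 as deposited. After TPM rescaling metastasis 2 lay within the range of the sorted cells. It rose in primary tumors (3.14 ± 0.49, adjusted p = 0.000490). Smaller changes were called in metastases (1.43 ± 0.49, adjusted p = 0.0223) and, downward, in allograft tumors (-1.36 ± 0.49, adjusted p = 0.0276). The call in metastases was lost under the 3 other scalings (0.44 to 0.97), with a pseudocount of 5 (0.88, adjusted p = 0.0648), without metastasis 1 (0.88, adjusted p = 0.0853) and without proximal tubule library 2 (adjusted p = 0.0609) or 3 (adjusted p = 0.0506). The call in allograft tumors did not hold at a pseudocount of 5 (-0.48, adjusted p = 0.291) or without any single library of either group (-1.31 to -1.43, adjusted p = 0.0502 to 0.0697). An antisense gene, Gm12927, shares exon sequence with Cldn19 and has no row in the table, so its reads cannot be told apart.

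Cldn8, a distal nephron claudin that pairs with Cldn4 (chr16:88560828-88563183, minus strand), had 22.0, 39.0 and 61.9 FPKM in primary tumors 1 to 3, 0.498, 0.845 and 0.665 FPKM in metastases, 0.0252, 0.699 and 0.0366 FPKM in allograft tumors, and 9.37, 9.58 and 10.6 FPKM in proximal tubule cells. In FPKM as deposited, the primary tumors all lay above the sorted cells and the other tumors all below them. After TPM rescaling primary tumor 1 lay within the range of the sorted cells. Cldn8 rose in primary tumors (1.84 ± 0.33, adjusted p = 0.00110) and fell in metastases (-2.70 ± 0.33, adjusted p = 5.23e-05) and allograft tumors (-3.15 ± 0.33, adjusted p = 1.88e-05). The rise was lost after TPM rescaling (0.79, adjusted p = 0.0667).

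The tubule segment markers moved with these claudins in part. Across primary tumors 1, 2 and 3 the thick limb list (282, 1909 and 3890 FPKM) and the 14 markers of distal tubule and collecting duct (94.7, 829 and 1436 FPKM) had the same order as Cldn8 and Cldn16, which were also lowest in primary tumor 1 and highest in primary tumor 3. Primary tumor 1 had a smaller sum of both lists than the sorted cells (332 to 565 and 175 to 263 FPKM), while its Cldn3, Cldn4, Cldn7, Cldn8, Cldn16 and Cldn19 all exceeded every library of sorted cells as deposited. After TPM rescaling its Cldn8 lay within the range of the sorted cells. The sums hide single markers, which are counted here in FPKM as deposited. Of the 5 thick limb markers only Egf lay below every sorted library, and the other 4 lay within their range. Median-of-ratios scaling divided levels by 1.10 in primary tumor 1 and by 0.712 to 0.727 in the sorted cells. All 5 thick limb markers then lay below every sorted library, as they did after TPM rescaling. Of the 14 distal markers 10 lay below every sorted library, and 3 lay above: Atp6v1g3, a proton pump subunit (12.97 FPKM against 3.06 to 4.56 FPKM in the sorted cells), Foxi1 (5.61 against 1.59 to 2.30 FPKM) and the magnesium channel gene Trpm6 (9.89 against 0.918 to 2.61 FPKM). The part of distal cells in the claudin levels was not tested. Per 100 FPKM of the thick limb gene Umod, Cldn19 had 12.9, 1.44 and 2.50 FPKM in primary tumors 1 to 3 against 1.72, 0.804 and 0.921 FPKM in the sorted cells. Cldn16 per 100 FPKM of Umod had 3.39, 1.35 and 1.12 FPKM in primary tumors 1 to 3 against 1.00, 0.708 and 1.13 FPKM in the sorted cells. With primary tumor 1 as the lone primary tumor the differences from the sorted cells were 4.36 for Cldn3, 3.48 for Cldn4, 2.85 for Cldn7, 1.09 for Cldn8, 1.37 for Cldn16 and 3.02 for Cldn19. These are given as values, since 1 library has no spread of its own.

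**Figure D2:**
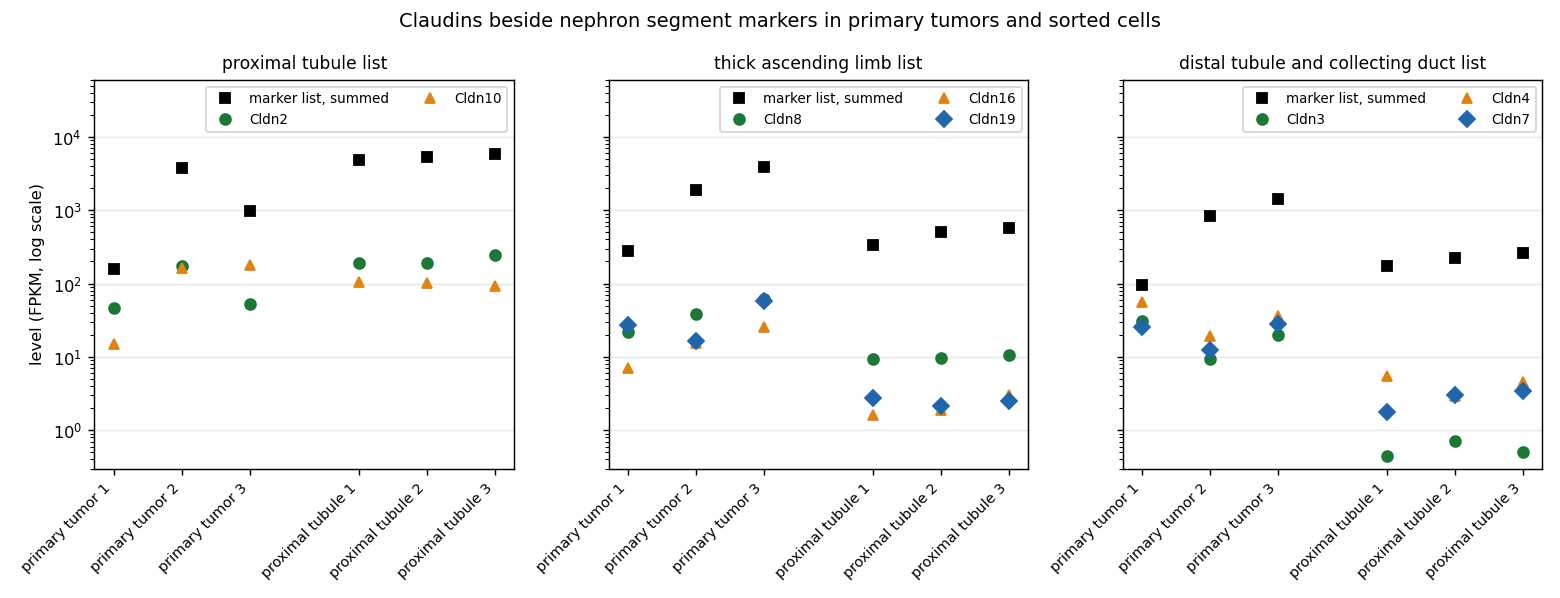
Levels in FPKM (log scale) of claudins beside the summed markers of a nephron segment, in primary tumors 1 to 3 and proximal tubule cells 1 to 3. Squares are the marker sums. Cldn8, a distal nephron claudin, is drawn beside the thick limb list with Cldn16 and Cldn19. In primary tumor 1 the thick limb sum (282) and the distal sum (94.7) lie below those of the sorted cells, while its Cldn3, Cldn4, Cldn7, Cldn8, Cldn16 and Cldn19 lie above theirs; of the 14 distal markers 3 (Trpm6, Atp6v1g3 and Foxi1) also lie above.

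Cldn18, the claudin of alveolar epithelium (chr9:99689461-99717267, minus strand), was high in metastases alone. It had 0, 1.05 and 0.199 FPKM in primary tumors 1 to 3, 122, 133 and 129 FPKM in metastases, 0, 0.0194 and 0.0916 FPKM in allograft tumors, and 0.0737, 0 and 0 FPKM in proximal tubule cells. Cldn18 rose in metastases against proximal tubule cells (6.98 ± 0.23, adjusted p = 1.14e-08). Without the metastases Cldn18 would not have passed the filter on low values. The 13 lung markers, at 13023 to 20484 FPKM in metastases against 311 to 592 FPKM in the sorted cells, moved with it, and their part in its level was not tested. Napsa, which the sorted cells had at 308 to 589 FPKM and metastases at 157 to 182 FPKM, made up nearly all of the sum in the sorted cells. The other 12 markers summed to 12866 to 20302 FPKM in metastases and 2.32 to 3.46 FPKM in the sorted cells. Gene-level FPKM does not tell which of the 2 starts shown above was used.

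Counted over the family, 6 of the 10 claudins were higher and none lower in primary tumors against proximal tubule cells, where 48.2% of all genes were called higher, 4.9% lower and 53.1% in either direction. Metastases had 4 higher and 4 lower, with 54% of all genes called higher, 14.4% lower and 68.4% in either direction. Allograft tumors had 3 higher and 5 lower, with 52.2% of all genes called higher, 16.9% lower and 69.1% in either direction. The median change of the 10 was 2.06, 0.26 and -0.80 in primary tumors, metastases and allograft tumors, beside 0.59, 0.68 and 0.66 over all genes. Relative to that all-gene median, the called rises ran from 1.25 (Cldn8) to 3.04 (Cldn3) in primary tumors, from 0.76 (Cldn19) to 6.30 (Cldn18) in metastases and from 0.46 (Cldn1) to 1.85 (Cldn4) in allograft tumors. After TPM rescaling the counts were 4 higher and 2 lower, 2 higher and 5 lower, and 0 higher and 5 lower, in the same order. After quantile normalization they were 6 and 1, 2 and 4, and 0 and 5, and after median-of-ratios scaling 6 and 1, 3 and 5, and 2 and 5. Of all genes called, 35.9%, 43.7% and 33.6% were higher after TPM rescaling. After quantile normalization these shares were 39.4%, 46.5% and 50.0%, and after median-of-ratios scaling 58.6%, 58.3% and 57.1%. The counts of the claudins therefore moved along with a shift of all genes. The falls of Cldn2, Cldn8 and Cldn10 in metastases and allograft tumors and the rises of Cldn3, Cldn7, Cldn16 and Cldn19 in primary tumors, of Cldn3 in metastases and of Cldn18 in metastases were called in every setting tried. The 3 comparisons share the proximal tubule libraries.

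**Figure D3:**
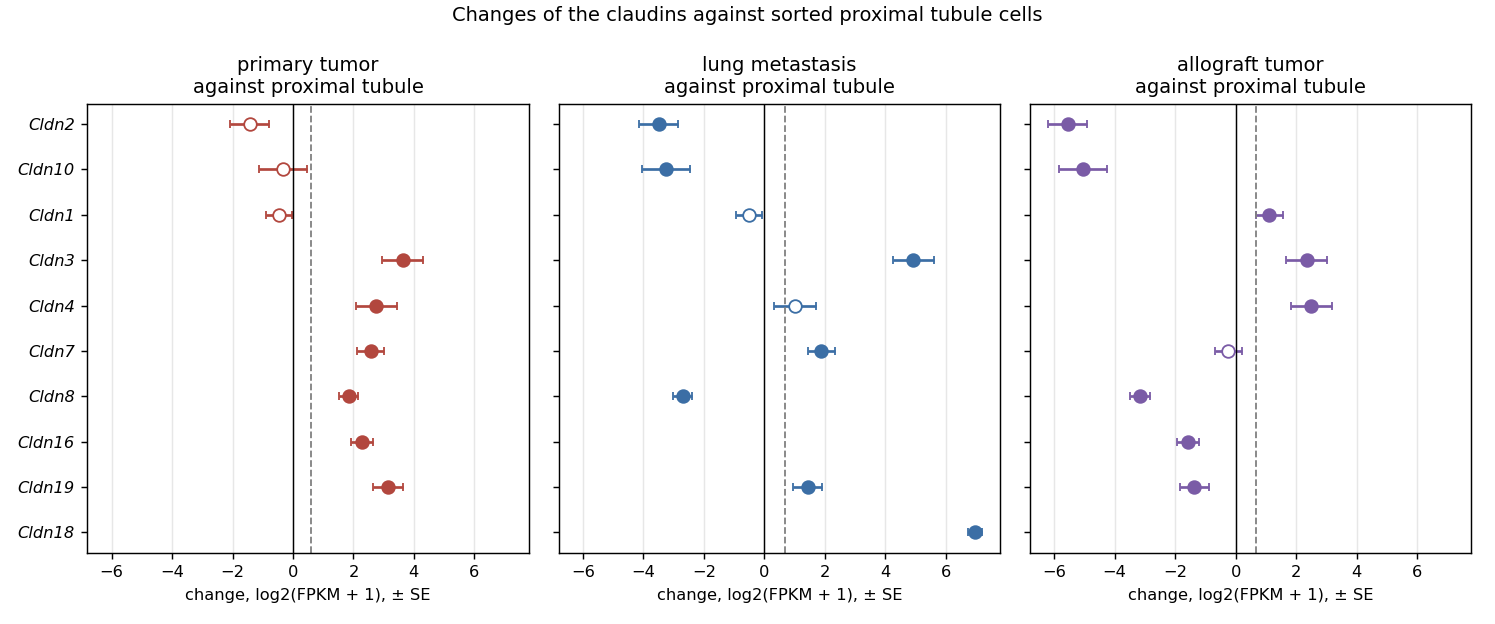
Changes of the 10 claudins against proximal tubule cells on the log2(FPKM + 1) scale, with bars of 1 SE (n = 3 libraries a group), in primary tumors, metastases and allograft tumors; filled points passed limma's test and open points did not, and the dashed line is the median of all genes (0.59, 0.68 and 0.66). Cldn8 lies at 1.84 in primary tumors, -2.70 in metastases and -3.15 in allograft tumors.

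Most called claudins were lower in metastases and allograft tumors than in primary tumors. Between the kinds of tumor the all-gene median was near 0 as deposited. After TPM rescaling that median was 0.038 in metastases against primary tumors. It was then -0.24 in allograft against primary tumors and -0.23 in allograft tumors against metastases. In metastases against primary tumors 1 claudin was higher and 5 lower, with 11.3% of all genes called higher, 9.59% lower and 20.9% in either direction. Cldn18 was higher, and Cldn8 (-4.54 ± 0.33, adjusted p = 9.90e-06), Cldn16 (0 in metastases, adjusted p = 4.64e-05), Cldn10 (-2.90 ± 0.79, adjusted p = 0.0294), Cldn19 (-1.71 ± 0.49, adjusted p = 0.0334) and Cldn2 (-2.06 ± 0.65, adjusted p = 0.0473) were lower. The last 3 calls were not held in several settings. Without primary tumor 2 the change of Cldn2 was -1.46 (adjusted p = 0.154) and that of Cldn10 -2.36 (adjusted p = 0.102), and without primary tumor 3 that of Cldn19 was -1.24 (adjusted p = 0.120). Cldn3 (1.30 ± 0.68, adjusted p = 0.195) and Cldn4 (-1.74 ± 0.68, adjusted p = 0.0930) did not pass, although neither overlapped between the groups, as held for 42% of all genes.

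In allograft against primary tumors 1 claudin was higher and 6 lower, with 20.5% of all genes called higher, 21.1% lower and 41.6% in either direction. Cldn1 was higher (1.58 ± 0.44, adjusted p = 0.0156), a call lost without primary tumor 3 (1.23, adjusted p = 0.0646), without allograft tumor 1 (1.31, adjusted p = 0.0620), with only the 2 groups compared (adjusted p = 0.0744) and without primary tumors 2 and 3 (0.55, adjusted p = 0.429). The falls were -4.99 ± 0.33 for Cldn8, -4.71 ± 0.79 for Cldn10, -4.51 ± 0.49 for Cldn19, -4.11 ± 0.65 for Cldn2, -3.86 ± 0.35 for Cldn16 and -2.81 ± 0.45 for Cldn7 (adjusted p = 1.86e-05 to 0.00134), and each was called in every setting. The libraries of 7 of the 10 claudins did not overlap between these groups, as was so for 43.7% of all genes. Cldn4 did not pass the test (-0.25 ± 0.68, adjusted p = 0.794); without allograft tumor 1 its difference was 0.69 and without primary tumor 1 it was 0.11.

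In allograft tumors against metastases 1 claudin was higher and 5 lower, with 10.4% of all genes called higher, 13.3% lower and 23.7% in either direction. Cldn1 was higher (1.62 ± 0.44, adjusted p = 0.0227), lost after TPM rescaling (1.25, adjusted p = 0.0659) and without any of allograft tumor 1, metastasis 2 or metastasis 3 (1.36 to 1.49). Cldn18 (-6.96 ± 0.23, adjusted p = 2.22e-08), Cldn19 (-2.80 ± 0.49, adjusted p = 0.00239) and Cldn7 (-2.12 ± 0.45, adjusted p = 0.00686) were lower in every setting. Cldn3 (-2.57 ± 0.68, adjusted p = 0.0209) and Cldn2 (-2.05 ± 0.65, adjusted p = 0.0437) were also lower. Both calls were lost without metastasis 2 or 3 and with only the 2 groups compared. Cldn3 was called in 13 of 16 other settings and Cldn2 in 7 of 16. In 7 of the 10 the libraries of these groups did not overlap, against 48.5% of all genes. Without allograft tumor 1 Cldn4, at 1.49 ± 0.68 (adjusted p = 0.142) in the full fit, was 2.44 (adjusted p = 0.00388).

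The share of each claudin in the summed FPKM of all 32 claudin genes does not depend on the scaling between libraries, and it shows the change of the mix. The sum itself was 318, 527 and 525 FPKM in primary tumors 1 to 3, 339 to 347 FPKM in metastases, 202 to 242 FPKM in allograft tumors and 375 to 432 FPKM in proximal tubule cells. Cldn2 and Cldn10 together made up 19.3%, 64.3% and 44.1% of the sum in primary tumors 1 to 3, 6.79% to 9.86% in metastases, 0.674% to 7.05% in allograft tumors and 77.0% to 78.5% in the sorted cells. Every tumor library lay below the sorted cells in this share. Cldn3, Cldn4 and Cldn7 made up 35.6%, 7.78% and 16.1% in primary tumors 1 to 3, 18.1% to 21.6% in metastases, 4.43%, 35.1% and 29.0% in allograft tumors 1 to 3, and 1.79% to 2.03% in the sorted cells. Every tumor library lay above the sorted cells here, where Cldn2 and Cldn10 took up most of the sum. Taken against the claudins other than that pair, allograft tumor 1 lay below the sorted cells. Cldn8, Cldn16 and Cldn19 made up 17.6%, 13.4% and 27.5% in primary tumors 1 to 3, 1.58% to 5.76% in metastases, 0.131% to 0.546% in allograft tumors and 3.62% to 3.73% in the sorted cells. Cldn18 alone made up 36.1% to 38.3% in metastases. The part of lung epithelium in the shares of the metastases was not tested. Cldn1 made up 44.2%, 22.6% and 21.2% in allograft tumors 1 to 3, against 6.85% to 7.09% in the sorted cells. That difference of shares is the same under every rescaling of whole libraries, whereas the change in the level of Cldn1 is not. A share also rises where other claudins fall, and Cldn2 and Cldn10 filled 77.0% to 78.5% of the sum in the sorted cells. Taken against the claudins other than Cldn2 and Cldn10, Cldn1 was above the sorted cells in allograft tumor 1 and below them in allograft tumors 2 and 3. Shares have no test.

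**Figure D4:**
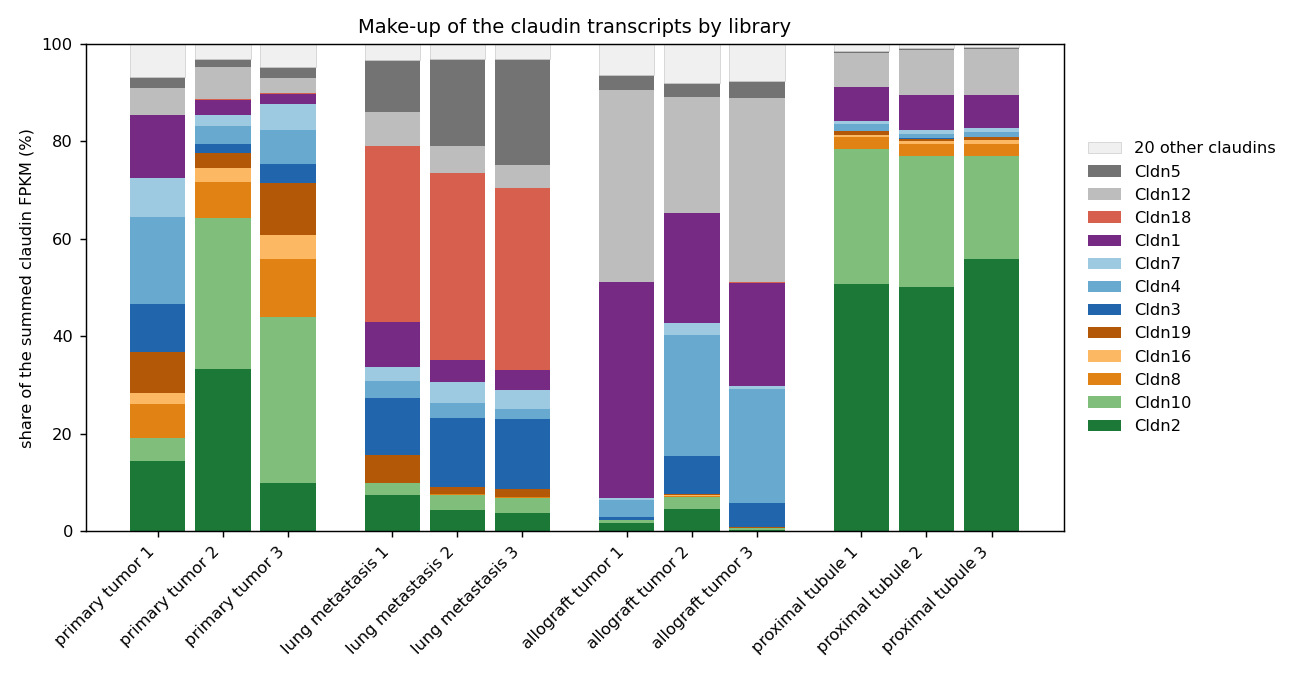
Share of each claudin in the summed claudin FPKM of each library, in percent, for primary tumors, lung metastases, allograft tumors and proximal tubule cells. Cldn2 and Cldn10 fill 77.0% to 78.5% of the bars of proximal tubule cells, Cldn18 fills 36.1% to 38.3% of those of metastases, and Cldn1 with Cldn12 fills most of the bar of allograft tumor 1 (44.2% and 39.4%).

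The order of levels among the 10 listed claudins changed with the mix; Cldn5 and Cldn12, which reached similar levels, are not ranked with them. In proximal tubule cells Cldn2 (207 ± 30.2 FPKM, SD, n = 3) led, followed by Cldn10 (98.6 ± 6.57), Cldn1 (27.6 ± 1.71) and Cldn8 (9.84 ± 0.641), and none of these overlapped with the next. In primary tumors Cldn10 (119 ± 90.3 FPKM) and Cldn2 (91.4 ± 72.8) led by mean, but each listed claudin down to Cldn16 (15.9 ± 9.19) overlapped with its neighbor in the order. In metastases Cldn18 (128 ± 5.27 FPKM) and Cldn3 (46.4 ± 5.52) stood apart, and Cldn1, Cldn2, Cldn7, Cldn19, Cldn4 and Cldn10 (20.4 to 9.59 FPKM by mean) each overlapped with the next. In allograft tumors Cldn1 (63.4 ± 22.3 FPKM) and Cldn4 (39.5 ± 28.2) led and overlapped with each other.

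Of the 22 other claudin genes 7 passed the filter on low values. Against proximal tubule cells 5 of the 7 were higher in primary tumors, 4 in metastases and 6 in allograft tumors, and none was lower, beside 48.2%, 54% and 52.2% of all genes called higher. Their medians were 1.40, 0.98 and 1.32, beside 0.59, 0.68 and 0.66 over all genes. Cldn20 and Cldn22 passed the filter only through tumor libraries, and Cldn9 only through the allograft tumors. As deposited, Cldn20 and Cldn22 were at 0 in the sorted cells and Cldn9 at 0 to 0.144 FPKM. A fall could thus not have been called for these genes, and the filter in part set the counts and medians. Under the other scalings 1 to 3 of the 7 were called lower in primary tumors and metastases. Rises then also made up a smaller share of all genes called than as deposited. Cldn5, the claudin of endothelium, had 9.41 ± 2.50 FPKM in primary tumors, 57.8 ± 19.7 in metastases, 7.01 ± 1.18 in allograft tumors and 1.42 ± 0.247 in proximal tubule cells. Its rise in metastases was 4.55 ± 0.27 (adjusted p = 8.28e-07), and the 6 endothelium markers other than Cldn5 summed to 203 to 356 FPKM there, against 37.3 to 55.8 FPKM in the sorted cells. Cldn12, a widely expressed claudin, had 74.6 ± 19.8 FPKM in allograft tumors and 33.9 ± 7.35 in proximal tubule cells (1.10 ± 0.31, adjusted p = 0.00852), with 0.47 (adjusted p = 0.177) after median-of-ratios scaling and -0.29 once rescaled to TPM. It was also higher in allograft than in primary tumors (22.8 ± 10.4 FPKM; 1.72 ± 0.31, adjusted p = 0.00184). Cldn15, which like Cldn2 forms a sodium pore, had 9.21 ± 3.21 FPKM in primary tumors and 1.68 ± 0.970 in proximal tubule cells (1.94 ± 0.35, adjusted p = 0.00116). Cldn9 reached 1.79 ± 0.804 FPKM in allograft tumors and 0.0883 ± 0.0773 in the sorted cells (1.32 ± 0.20, adjusted p = 0.000208). Cldn20 and Cldn22, at 0.356 to 2.84 FPKM in the tumors, were listed at 0 in the sorted cells. Cldn34c1 and Cldn22 have close copies, so their levels are uncertain; Cldn34c1 had 4.26 to 10.49 FPKM in the tumors and 0.695 to 1.55 FPKM in the sorted cells.

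All 29 tight junction partners of claudins in the table passed the filter: scaffolds, occludin relatives, adhesion molecules and polarity proteins. Against proximal tubule cells 14 rose and 1 fell in primary tumors, 14 rose and 4 fell in metastases, and 9 rose and 11 fell in allograft tumors, with list medians of 0.52, 0.51 and -0.15. Of all genes 48.2%, 54% and 52.2% were called higher and 4.9%, 14.4% and 16.9% lower, so the rises in primary tumors and metastases were at or near the share of all genes. After TPM rescaling these counts were 4 and 9, 5 and 12, and 2 and 18. Of all genes called, 35.9%, 43.7% and 33.6% were then higher, against 90.8%, 78.9% and 75.6% as deposited. The balance of the partners in primary tumors and metastases thus depended on the scaling, as did that of all genes. In allograft tumors more partners fell than rose as deposited and under the 3 other scalings. In primary tumors the large rises included those of Epcam, the partner of Cldn7 (74.5 ± 39.2 FPKM against 7.59 ± 0.859 in the sorted cells; 3.02 ± 0.76, adjusted p = 0.00730), and Jam2, a junctional adhesion molecule (2.87 ± 0.20). The one fall was of Ildr2, an angulin of tricellular contacts (-1.52 ± 0.54, adjusted p = 0.0365), which was lost without primary tumor 1 (-1.04, adjusted p = 0.124) and without each other library but primary tumor 2.

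In metastases the large rises included those of Cxadr, an adhesion receptor (78.2 ± 22.8 FPKM against 10.1 ± 0.489 in the sorted cells; 2.80 ± 0.32) and Jam2 (2.77 ± 0.20). Wnk4, a kinase that phosphorylates claudins, fell to 1.26 ± 0.152 FPKM in metastases, against 24.9 ± 0.576 in the sorted cells (-3.52 ± 0.39), followed by Cgnl1 (paracingulin, -1.98 ± 0.36) and Ildr2 (-1.81 ± 0.54). In allograft tumors the largest rises were of Ybx3, a factor held at junctions by Tjp1 (125 ± 16.8 FPKM against 20.6 ± 2.97 in the sorted cells; 2.54 ± 0.24), Jam2 (2.45 ± 0.20) and Cxadr (2.08 ± 0.32, and 0.72 with adjusted p = 0.0970 after TPM rescaling). Wnk4 (-4.05 ± 0.39), Ildr2 (-3.18 ± 0.54) and Marveld3, an occludin relative (-2.45 ± 0.25), fell most. Adjusted p ran from 2.41e-06 to 0.0122 for these 11 changes. Occludin and Tjp1 (ZO-1) were singled out after their values were seen. Ocln had 0.328, 1.76 and 0.294 FPKM in allograft tumors and 7.38, 7.08 and 8.38 FPKM in the sorted cells (-2.35 ± 0.28, adjusted p = 4.41e-05), whereas Tjp1 had 25.6, 30.7 and 49.3 FPKM in allograft tumors and 12.7, 12.4 and 11.9 FPKM in the sorted cells (1.39 ± 0.23, adjusted p = 0.000321, and 0.031 after TPM rescaling).

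Genes with the most similar pattern were found by Pearson's r of log2(FPKM + 1) over the 12 libraries, which share groups, so r is a description. Cldn16 was most like Foxi1, a transcription factor of intercalated cells (r = 0.998), and Cldn8 was most like Atp6v1b1, a proton pump subunit of the same cells (r = 0.992). Cldn18 was most like Hc (r = 0.998), Slc6a14 (0.998) and the surfactant gene Sftpb (0.996). Cldn7 was most like Esrp1, an epithelial splicing factor (r = 0.986), and the junction scaffold Tjp3 (0.968). Cldn2 was most like Pdzk1ip1 (r = 0.985), Cldn10 like Arhgap32 (0.987), Cldn3 like Pmp22 (0.988), Cldn19 like Edn3 (0.955), Cldn4 like Nfasc (0.924) and Cldn1 like the receptor gene Egfr (0.883). Among the claudins themselves the most alike pairs were Cldn8 with Cldn16 (r = 0.969) and Cldn2 with Cldn10 (0.923), while Cldn16 and its partner Cldn19 gave 0.692 and Cldn1 with Cldn10 gave -0.666.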

How the data were processed

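Bulk RNA-seq of 12 mouse libraries was used. The authors deposited 1 table of FPKM for 24432 genes, used as deposited. The submitters' processing notes name Salmon, bcl2fastq 2.17.1.14 and the builds GRCm38 and mm10. The sources used here do not give gene lengths, filters or strandedness, or say whether the proximal tubule columns were made the same way. Symbols came from GENCODE M21 by Ensembl identifier (24189 of 24432 matched). A pseudocount of 1 was added before log2, genes with at least 1 FPKM in 3 or more libraries were kept (16313), and all 12 libraries entered 1 limma model of the 4 groups (version 3.58.1, R 4.3.3; trended variances, no covariate). Tests were two-sided, with Benjamini-Hochberg adjustment over the genes of each comparison. The code was tested on simulated data with known changes. Depth is not stated in the labels and was estimated from low values, so no counting intervals are given.

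The claudins, the other lists and the tests were chosen with earlier results of these data known. Named were all 10 claudins, the other claudins past the filter, the 3 largest called rises and falls of tight junction partners against proximal tubule cells, and the genes most like each claudin. A tight junction partner that this rule also names is not reported here. A log2 change is left out where a group is listed at 0 throughout or both group means are under 1 FPKM. Promoter windows (9 of the 10 claudins had an entry, 13 windows) are RefSeq sequence of GRCm38.p6. Alternatives were pseudocounts of 0.1 and 5, no filter and a filter of 5 FPKM, TPM rescaling, median-of-ratios scaling, quantile normalization, only the 2 groups compared, a replicate block, array weights, leaving out primary tumors 2 and 3, and leaving out each library.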

Additional observations from a re-analysis of the deposited data

Results flagged for a closer look

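Of the 10 claudins, 3 were called in opposite directions against proximal tubule cells in different kinds of tumor, with the difference between those tumors itself called by limma. Cldn8 rose in primary tumors and fell in metastases and allograft tumors, and it was lower in metastases than in primary tumors (-4.54, adjusted p = 9.90e-06) and lower in allograft than in primary tumors (-4.99, adjusted p = 1.86e-05). Cldn16 rose in primary tumors and fell in allograft tumors, and was lower in allograft than in primary tumors (-3.86, adjusted p = 7.21e-05). Cldn19 rose in primary tumors and metastases and fell in allograft tumors, and was lower in allograft tumors than in primary tumors (-4.51, adjusted p = 0.000162) and than in metastases (-2.80, adjusted p = 0.00239). These changes share the proximal tubule libraries, and for each of the 3 claudins a call was lost in some setting. The rise of Cldn8 in primary tumors was lost after TPM rescaling, and the fall of Cldn16 in allograft tumors with a pseudocount of 5. The changes of Cldn19 in metastases and allograft tumors were lost in settings given above. No group had the 4 libraries that a check for outlying libraries needs.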

How the results depend on the processing

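Of 53 log2 changes of the claudins, 39 were called; 23 of these stayed called in every setting, 16 were lost in at least 1 and 1 changed sign, and of the 14 not called 10 were called in some setting. The claudins called in allograft tumors against proximal tubule cells numbered 8, and 5 after TPM rescaling or quantile normalization. In metastases against primary tumors the 6 became 3 with only the 2 groups compared or without primary tumors 2 and 3, and 3 to 6 without single libraries; all genes called (3414) became 1175, 1155 and 1554 to 6268, and 9743 with array weights. In allograft tumors against metastases 6 became 3 to 6 without single libraries, and all genes (3872) became 2278 to 3742, and 6511 with array weights. All genes called in allograft against primary tumors (6784) became 2893 with only the 2 groups and 3271 without primary tumors 2 and 3, and those in primary tumors against proximal tubule cells (8661) became 5738 after quantile normalization. The cause was not tested.

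Signs turned as follows. Against proximal tubule cells, Cldn10 in primary tumors became 0.69 with array weights and -0.95 to 0.79 without single libraries, Cldn1 in primary tumors 0.57 without primary tumors 2 and 3, Cldn7 in allograft tumors 0.27 with array weights and -0.77 to 0.13 without single libraries, and, after TPM rescaling, Cldn1 -0.27 and Cldn12 -0.29 in allograft tumors. In metastases against primary tumors Cldn1 became 0.0035 after median-of-ratios scaling, 0.38 with array weights and -0.40 to 0.48 without single libraries (above 0 without primary tumor 1, metastasis 2 or metastasis 3). In allograft against primary tumors Cldn4 became 0.14 with array weights and -0.73 to 0.69 without single libraries (above 0 without primary tumor 1 or allograft tumor 1).

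Deviations from group means of the 18 same-numbered pairs of libraries correlated at -0.043 to 0.098. Differently numbered pairs were not set beside them, so these values cannot show whether replicate numbers pair the libraries. A replicate block left the claudin counts at 6, 8, 8, 6, 7 and 6 in the 6 comparisons, and all genes called became 8536, 11050, 11133, 3334, 6547 and 3639. Values under about 0.1 FPKM rest on a few fragments.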

Other observations

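Cldn4 and Cldn3 lie 39.3 kb apart on chromosome 5, and the ratio of their levels differed by kind of tumor. Cldn4 stood at 1.85, 2.02 and 1.80 FPKM per 1 FPKM of Cldn3 in primary tumors 1 to 3, at 0.295, 0.208 and 0.140 in metastases, and at 6.35, 3.19 and 4.68 in allograft tumors. The ratio does not depend on the scaling between libraries, and the 3 kinds of tumor did not overlap in it; it has no test. Cldn1 and Cldn16 lie 91.3 kb apart on chromosome 16. Cldn1 was at 49.9 to 89.2 FPKM in allograft tumors and 26.6 to 29.6 FPKM in the sorted cells, a difference that turned to -0.27 after TPM rescaling, and Cldn16 was at 0 to 0.140 FPKM in allograft tumors and 1.60 to 3.07 FPKM in the sorted cells. Cldn3 per 1 FPKM of Epcam stood at 0.520, 0.208 and 0.170 in primary tumors 1 to 3 and at 1.85 to 2.24 in metastases. It stood at 0.753 and 1.47 in allograft tumors 2 and 3 and at 0.0604 to 0.0920 in proximal tubule cells. Allograft tumor 1 had under 1 FPKM of Epcam and is left out. The part of lung epithelium in both ratios of the metastases, Cldn4 to Cldn3 and Cldn3 to Epcam, was not tested.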
